A study of Mus musculus with 4 samples.

Results

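In mammary epithelium of adult CD1 mice, the authors' clustering placed nuclei that carry the open chromatin of mature luminal cells in 2 separate classes, numbered 2 and 11, and the nuclei of these classes were compared within each adult library. Membership was taken from the deposited class number within the adult libraries. It gave 2076 of the 7846 nuclei of the series, 1519 in class 2 and 557 in class 11, all from the adult libraries. Adult replicate 1 held 805 nuclei of class 2 and 197 of class 11, and adult replicate 2 held 714 and 360. The assay was ATAC-seq of single nuclei, in which the Tn5 transposase cuts and tags open DNA and a combination of barcodes marks each nucleus. The adult mice were wild type and 8 weeks old, and their epithelial cells were sorted as positive for EpCAM and negative for lineage markers before nuclei were taken. The fetal libraries of embryonic day 18 were not compared, and the 3 fetal nuclei of class 2 and 7 of class 11 were left out.

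Mature luminal cells line the mammary ducts and sense hormones through the oestrogen, progesterone and prolactin receptors, encoded by Esr1, Pgr and Prlr. FOXA1 opens chromatin for the oestrogen receptor in these cells, and GATA3 keeps the luminal fate. In answer to progesterone they release paracrine signals, RANKL (encoded by Tnfsf11) and WNT4 among them, that act on neighbouring progenitors. In ATAC-seq, promoters of widely used genes are open in most cell types, while distal regions carry more of the difference between cell types.

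Both classes bore the label out in their summed markers, which rest on the same nuclei as the classes and so are no independent test. Reads over the 10 mature luminal marker genes summed to between 1372 and 1515 CPM (reads scaled to a common total over the tested features) in the 4 sums of class and library, against 453 to 709 in the basal classes (1 and 8) and the luminal progenitor classes (7 and 3). Single markers did not all do so. In class 11 Wnt4 had 105 and 112 CPM, against 116 in class 7 of replicate 1. Ly6a had 10.2 and 16.7 in class 11, against 23.9 in class 8 of replicate 1. The genes of the hormone receptors did not separate classes 2 and 11 by the test as planned. Esr1 stood at 273.5 and 320.2 CPM in class 2 and at 261.2 and 339.5 in class 11. Over Foxa1 there were 216.8 and 216.3 CPM in class 2, and 177.2 and 217.4 in class 11. For both genes the ranges of the 2 classes overlapped. The log2 ratio of class 2 over class 11 was 0.18 for Pgr, 0.11 for Prlr, 0.17 for Gata3, 0.28 for Krt8, 0.31 for Krt18, 0.22 for Elf5, -0.36 for Krt14 and -0.68 for Trp63, and none passed the test. Signs differed between replicates 1 and 2 for Krt14 (0.94 and -1.04) and Prlr (-0.05 and 0.25), and Krt18 had 0.07 and 0.51. Among depth-matched nuclei Trp63 passed the test (-0.87, adjusted p = 0.03199, edgeR). With an offset smoothed on gene length, added after the data were seen, Esr1 (0.44, against -0.02 without it) and Prlr (0.35) were called higher in class 2. Trp63, a gene of 208326 bases, had -0.38 with that offset and was not called (adjusted p = 0.3686, edgeR). Krt5, a basal keratin, had 4 and 4 reads in class 2 and 0 and 8 in class 11, too few for the test.

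The classes were drawn by the authors from the accessibility of the same nuclei. The tests below therefore describe how the classes differ and are no evidence that they are separate cell states. Reads were summed per class and library, which gives 2 pairs of sums, and a log2 ratio above 0 means class 2 was higher.

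Nuclei of class 11 were deeper and had a smaller share of their reads in promoter regions. The median nucleus held 4423 and 5666.5 reads in class 2 (adult replicates 1 and 2) and 5490 and 7675.5 in class 11. Promoter regions took 25.7% and 23.3% of the reads of class 2 and 21.1% and 18.6% of those of class 11. The difference was 4.62 percentage points in replicate 1 and 4.67 in replicate 2, with a mean of 4.64 ± 0.0401 (SD, n = 2 libraries). With 2 pairs the smallest p of an exact test is above any threshold, so none was run. Class 2 also had more reads in distal regions, by 1.37 and 4.23 points, and class 11 more in neither kind of region, 37.0% and 42.7% against 31.1% and 33.8%.

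**Figure D1:**
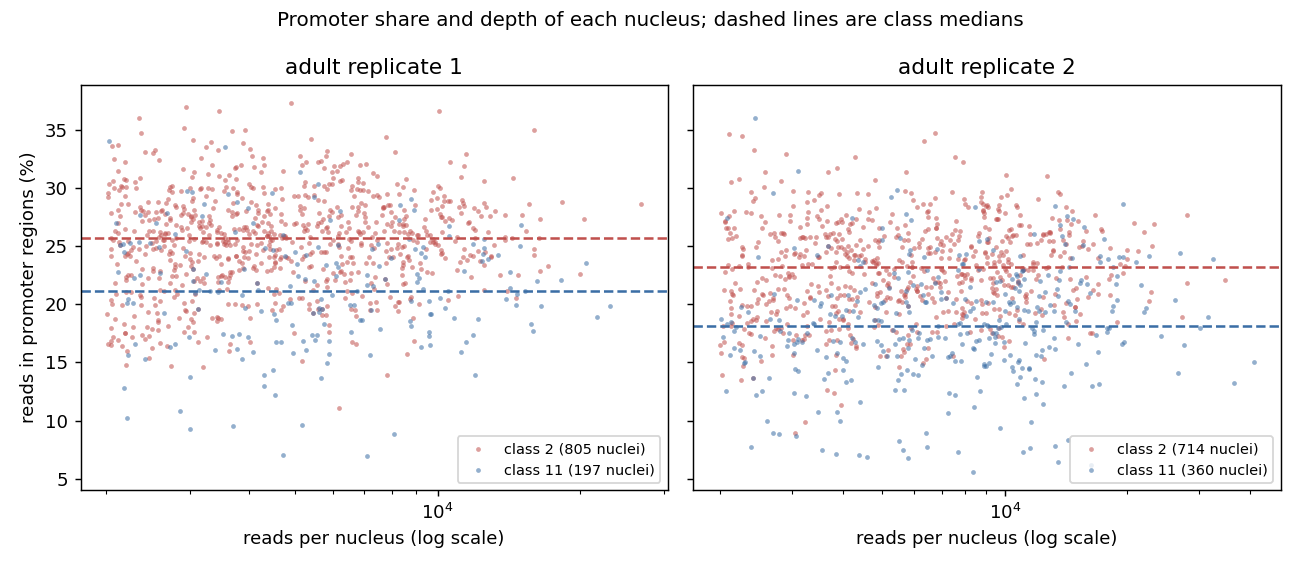
Each point is a nucleus of class 2 or class 11; the x axis gives its reads on a log scale and the y axis the percentage of its reads in promoter regions, with a panel for each adult library. Dashed lines mark the class medians, 25.7% against 21.2% in replicate 1 and 23.2% against 18.1% in replicate 2; the clouds overlap.

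The distributions overlapped. In replicate 1, 15.2% of class 11 nuclei lay above the class 2 median of promoter share, and in replicate 2 14.7% did. From 2000 to below 4000 reads per nucleus, the median promoter share was 25.4% and 22.6% in class 2 against 21.9% and 16.8% in class 11. At 8000 reads and more it was 25.9% and 23.6% against 21.3% and 19.0%. Class 2 was higher in 6 of 6 combinations of depth range and library, by 3.5 to 6.0 points, and the difference was 4.94 points in nuclei matched and thinned to equal depth.

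Classes of the other adult lineages come in like pairs. Class 1 exceeded class 8 (basal) by 6.85 and 7.99 points of promoter share, and class 7 exceeded class 3 (progenitor) by 6.31 and 5.55 points. In both of these pairs, as in the mature luminal pair, the class with the smaller promoter share had the higher median depth in both libraries. The share of reads on the X chromosome was lower in class 2 than in class 11, at 1.93% and 2.11% against 2.22% and 2.67%. It was also lower in class 1 than in class 8 (1.85% and 2.03% against 2.32% and 2.96%). The same held for class 7 and class 3 (1.83% and 2.05% against 2.19% and 2.56%). Of the nuclei in classes 2 and 11, class 11 took between 15.7% and 21.7% across the 4 values of the first 8-base part of the barcode in replicate 1, and between 21.2% and 39.0% in replicate 2. Over the other 3 parts, among values with at least 20 nuclei, it ran from 4.17% to 42.9% in replicate 1 and from 13.6% to 57.9% in replicate 2. Which part marks a well or plate was not given in the sources used here. No barcode occurred in both libraries.

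Distal regions hold most enhancers, and very few of them separated the classes. The 4 sums had to average 10 reads or more for a region to be tested. Of 39601 such distal regions, 17 (0.0429%) passed the quasi-likelihood test of edgeR at an adjusted p under 0.05, all 17 higher in class 2. An unadjusted p under 0.05 was found at 3183 (8.04%). The direction was less one-sided under other settings: 28 higher and 18 lower in class 2 at an average of 50 reads, 38 and 26 when nuclei with a read were counted, 27 and 14 with an offset smoothed on level (added after the data were seen), and 12 and 5 in nuclei matched in depth and promoter share. Over all tested regions, 56.1% had the same direction in both libraries.

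The called regions fell in 2 kinds by their level in other classes, a division made after their values were seen. In 13 of them the reads were also high in the progenitor and basal classes, and 10 of the 17 were among the 20 distal regions with the most reads. The highest was chr17:39844166-39845165 (mm10), at the copy of the 45S ribosomal RNA repeat in that assembly. It held 25721 and 24900 reads in class 2 and 2256 and 5461 in class 11, which is 0.581% and 0.502% of all reads against 0.172% and 0.17%. At least 1 of its reads was present in 99.3% and 98.3% of class 2 nuclei and in 87.8% and 81.1% of class 11 nuclei. Its log2 ratio was 1.52 ± 0.07 (SE), with an adjusted p of 4.903e-16 from edgeR. With the level offset the ratio at this region turned to -0.18 (adjusted p = 2.717e-10, edgeR). That offset was smoothed over the same regions, and this one lies at its upper end. The sign under the offset therefore cannot be told apart from the smoothing itself. In the progenitor pair the same region was higher in class 7 than in class 3 by 1.18 on the log2 scale, and in the basal pair higher in class 1 than in class 8 by 0.82.

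Several regions of this kind lay within protein-coding genes. How reads that match several places were mapped was not given in the sources used here, and whether these regions hold reads from other copies was not tested. chr16:57390977-57391976, within Cmss1 and Filip1l, had 1109 and 998.3 CPM in class 2 and 315.7 and 348.7 in class 11, a log2 ratio of 1.66 ± 0.15 (adjusted p = 1.993e-08, edgeR). chr16:11143573-11144572 in Zc3h7a, an RNA-binding zinc finger gene, had a ratio of 1.67. chr12:78350403-78351402 lies in Gphn, which encodes the scaffold protein gephyrin, and had 371.8 and 293.0 CPM against 109.3 and 95.3, a ratio of 1.69, which was 1.09 and not called among nuclei matched in depth and promoter share (adjusted p = 0.0922, edgeR). Outside protein-coding genes, chr11:109011170-109012169 in the long non-coding RNA gene Gm36876 had a ratio of 1.68 and chr6:3200847-3201846 one of 1.85. With the level offset the ratios were 0.86 at Cmss1, 0.92 at Zc3h7a, 0.94 at Gm36876 and 1.22 at Gphn. Each of these regions was also higher in class 7 than in class 3, by 1.09 to 2.05.

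A second kind of 4 regions had few reads outside the mature luminal classes. chr17:31911920-31912919, which overlaps the long non-coding RNA genes 2310015A16Rik and Gm30571, had 111 and 139 reads in class 2 and 11 and 15 in class 11, with reads in 6.34% and 8.12% of nuclei against 2.54% and 2.22%. Its log2 ratio was 1.99 ± 0.37 (adjusted p = 0.02385, edgeR). chr4:123813744-123814743 in Rhbdl2, a rhomboid protease gene, had 156 and 202 reads against 12 and 44. chr6:108158506-108159505 in Sumf1, which activates sulfatases, had 166 and 146 against 12 and 32. chr17:48192248-48193247 had 30 and 64 reads in class 2 and 0 and 2 in class 11, from 16 and 33 nuclei against 0 and 1. In all 4 the class 2 values lay above the class 11 values in both libraries, and in the 8 basal and progenitor sums no level of the last 3 passed 11.6 CPM. The first of them reached 38.2, above its level in class 11. Among depth-matched nuclei only the first of the 4 was still called, and it was not called among nuclei matched in promoter share as well (1.41, adjusted p = 0.475, edgeR) or with the spread from 12 sums (adjusted p = 0.9996).

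**Figure D2:**
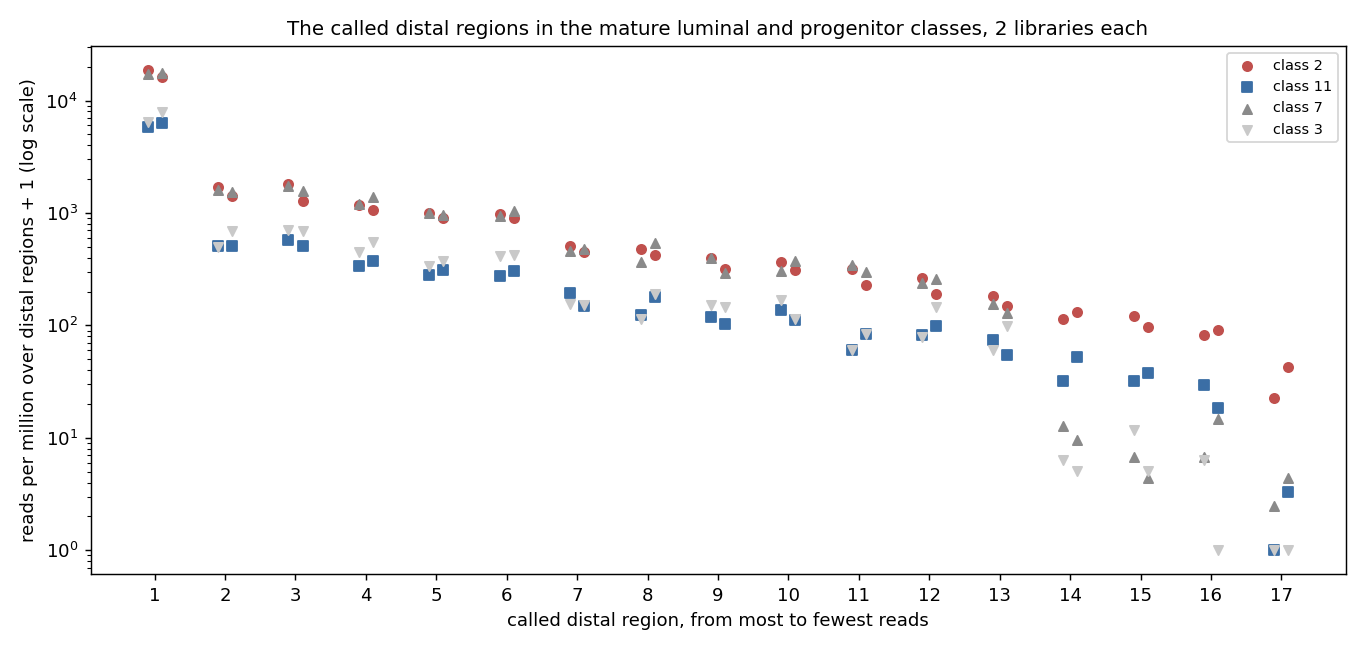
CPM (plus 1, log axis, scaled over 12 sums of 6 classes) at the 17 called distal regions, ordered by mean reads; each symbol is a library of class 2, 11, 7 or 3. In regions 1 to 13 class 7 sits near class 2 and class 3 near class 11, while in regions 14 to 17 both progenitor classes lie below class 2.

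Links between regions were given by the authors' Cicero co-accessibility scores, deposited for the series as a whole. Of the 17 called regions, 8 had a score of at least 0.25 with a promoter region. The share of all tested distal regions with such a link was not computed, so this count has no background beside it. The strongest, 0.565, joined the region in Gm36876 to a promoter region at Amz2, and the region in Gphn was linked to a promoter region at Gphn itself with 0.292.

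Among depth-matched nuclei, 18 distal regions were called, 14 of them among the 17, and all 17 had the same direction. When nuclei were matched in depth and in promoter share (160 pairs in replicate 1 and 265 in replicate 2), 17 regions were called, of which 8 were among the first 17, and 16 of 16 that could be tested had the same direction. The ratio at the ribosomal repeat was then 1.04. Both matchings reuse nuclei that gave the first calls, so the shared directions are no independent test.

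Within 50000 bases of Esr1, Pgr, Prlr, Foxa1, Gata3, Tnfsf11, Krt8 and Krt18 no distal or promoter region was called. Over all tested regions 0.0429% of distal and 0.451% of promoter regions were called, so none among these few is near the background. Of 13 tested distal regions near Esr1, 6 had a ratio above 0, and of 16 around Foxa1, 4 did. All 10 around Pgr had one. Their median log2 ratio was 0.60, against 0.03 over all tested distal regions. None of the 10 had an unadjusted p under 0.05. Their reads were few: chr9:8964123-8965122, with the most reads of those inside Pgr, had 36 and 33 in class 2 and 7 and 22 in class 11, a ratio of 0.08.

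Promoter regions gave more calls, and these were less stable. Of 13092 tested, 59 (0.451%) were called by edgeR, 36 higher in class 2 and 23 higher in class 11, with 1648 at an unadjusted p under 0.05. This balance depended on the setting: 12 higher and 41 lower in class 2 when nuclei with a read were counted, 13 and 24 at an average of 50 reads, 7 and 12 with the level offset, and 0 and 4 with the spread from 12 sums. None of the 59 was called among depth-matched nuclei, where 11500 regions were tested and 1261 had an unadjusted p under 0.05. DESeq2 called none either, with 215 at an unadjusted p under 0.05. Direction was kept more often than the call: 57 of the 57 called regions that could be tested in depth-matched nuclei had the same sign. The ratios were of like size there, 1.86 at Cops8, 1.37 at Sun2 and -1.40 at Gpc5, against 1.77, 1.33 and -1.38 over all nuclei. With promoter share matched too, none was called, and 501 of 10022 (5.0%) had an unadjusted p under 0.05. All 56 called regions tested there kept their sign, but sizes varied. Cops8 had 1.34, Sun2 1.22 and Gpc5 -1.60, while Skiv2l with Nelfe fell from 1.29 to 0.60 and Jup from 0.86 to 0.24. Depth matching reused every class 11 nucleus and part of the class 2 nuclei that gave the calls, so the kept signs and sizes are no independent test.

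Among regions called higher in class 2 and averaging 50 reads or more, the highest ratio was at Cops8, which encodes a subunit of the COP9 signalosome. The region chr1:90602805-90603804 had 97 and 96 reads in class 2 and 6 and 16 in class 11, or 89.0 and 86.0 CPM against 22.5 and 27.5. The log2 ratio was 1.77 ± 0.42 (adjusted p = 0.02331, edgeR). Next came the promoter regions of Sun2, a protein of the nuclear envelope (1.33), of Skiv2l and Nelfe (1.29), of Sh3bp4, an endocytic adaptor (1.26), of Rsrc2 (1.22) and of the ubiquitin ligase Stub1 (1.18). Rsrc2 had 0.74 in replicate 1 and 1.51 in replicate 2. At each of these 6, both class 2 libraries lay above both class 11 libraries. Outside the naming rule, and chosen after their values were seen, Myc had a ratio of 0.91, Socs3 one of 0.83 and the junction gene Jup one of 0.86.

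Higher in class 11 were promoter regions of Gpc5, Snai2, Sema3c, Etaa1 and Ccser1. Gpc5, a glypican, had 57 and 49 reads in class 2 and 37 and 66 in class 11 at chr14:115091649-115092648, which is 52.3 and 43.9 CPM against 138.5 and 113.4, a log2 ratio of -1.38 ± 0.32. Snai2, a zinc finger factor of basal cells, had a ratio of -1.33 at chr16:14705216-14706215, the semaphorin gene Sema3c one of -1.14, Etaa1 with its antisense Etaa1os one of -1.11 and Ccser1 one of -0.91. Fewer reads lay at Twist1, a factor of mesenchymal cells, with 8 and 19 in class 2 and 23 and 40 in class 11 and a ratio of -2.65. Igfbp5, with 9 and 17 reads against 29 and 18, had a ratio of -2.32. Both were chosen after their values were seen, and both moved with the library: Twist1 had -3.16 in replicate 1 and -1.86 in replicate 2, and Igfbp5 -3.35 and -0.91.

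The promoter region chr1:24612337-24613336, in the pseudogene Gm10222, rested on 1 library. It held 722 and 875 reads in class 2 and 207 and 2483 in class 11, so that the log2 ratio was -0.23 in replicate 1 and -2.44 in replicate 2. The pseudogene belongs to a nuclear copy of mitochondrial DNA. In replicate 2 the share of reads in this region was 0.0771% in class 11, 0.083% in class 8 and 0.0883% in class 3, against 0.0176% in class 2.

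RefSeq promoter windows of GRCm38.p6 matched 8112 of the tested promoter regions. The upstream 250 bases of 2 genes higher in class 2 (Cops8, chr1:90603175-90603424, plus strand, and Sh3bp4, chr1:89070165-89070414, plus strand) and 2 higher in class 11 (Gpc5, chr14:115091965-115092214, plus strand, and Sema3c, chr5:17574566-17574815, plus strand) are printed 5′ to 3′, chosen as the named regions with a window that had the strongest ratios in each direction, with the GC box GGGCGG and the ETS core CCGGAAG, or their reverse complements, in capitals.
Cops8: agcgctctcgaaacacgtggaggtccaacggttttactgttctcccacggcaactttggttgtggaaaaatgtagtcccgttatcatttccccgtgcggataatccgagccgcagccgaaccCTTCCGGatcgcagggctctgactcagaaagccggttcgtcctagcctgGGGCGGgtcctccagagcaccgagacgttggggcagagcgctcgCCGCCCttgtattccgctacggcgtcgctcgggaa
Sh3bp4: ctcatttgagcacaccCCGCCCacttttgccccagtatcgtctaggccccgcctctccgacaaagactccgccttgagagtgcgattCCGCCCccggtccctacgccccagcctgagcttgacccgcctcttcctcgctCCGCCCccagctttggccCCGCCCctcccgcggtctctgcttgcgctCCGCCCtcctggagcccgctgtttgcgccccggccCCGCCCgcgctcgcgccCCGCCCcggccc
Gpc5: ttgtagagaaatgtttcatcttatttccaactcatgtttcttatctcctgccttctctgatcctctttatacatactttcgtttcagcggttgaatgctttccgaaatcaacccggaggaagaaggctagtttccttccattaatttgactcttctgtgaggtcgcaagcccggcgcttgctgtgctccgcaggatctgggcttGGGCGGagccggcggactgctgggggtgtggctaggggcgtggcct
Sema3c: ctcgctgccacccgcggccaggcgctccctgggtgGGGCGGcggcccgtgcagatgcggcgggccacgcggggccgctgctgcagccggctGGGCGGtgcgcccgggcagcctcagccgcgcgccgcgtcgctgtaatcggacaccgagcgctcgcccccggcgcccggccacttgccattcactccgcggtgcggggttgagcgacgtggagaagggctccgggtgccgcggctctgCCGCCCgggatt

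By these letters the Sh3bp4 window held 7 GC boxes and Cops8 held 2 and 1 ETS core, while Gpc5 held 1 GC box and Sema3c 3. Over the full 300-base windows, searched on both strands, GGGCGG was present in 70.6% of all tested windows, in 27 of 28 called higher in class 2 and in 11 of 12 called higher in class 11. CCGGAAG was present in 18.6%, 5 of 28 and 1 of 12. The AP-1 site TGANTCA was present in 4.68%, 3 of 28 and 0 of 12, the forkhead site TGTTTAC in 2.54%, 1 of 28 and 0 of 12, the GATA site AGATAA in 4.84%, 1 of 28 and 2 of 12, and the receptor half-site TGACCT in 11.2%, 3 of 28 and 0 of 12. Median GC content was 62.3% over all windows, 64.7% in those higher in class 2 and 65.7% in those higher in class 11. The median log2 ratio was -0.09 in the fifth of windows with the fewest CpGs and 0.08 in the fifth with the most.

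Ratios moved with the level of a region in both libraries. For promoter regions the median log2 ratio was -0.48 in the 10% with the fewest reads and 0.19 in the 10% with the most. For distal regions these values were -0.20 and 0.30. Each library gave the trend alone: promoter medians went from -0.39 to 0.21 in replicate 1 and from -0.35 to 0.17 in replicate 2. When distal regions were ranked instead by fitted level, the lowest 10% were at 0.13, above those of middling level at -0.08. Scaling to all reads in place of TMM shifted the median of all promoter regions by 0.30, of distal regions by 0.15 and of gene spans by 0.10. The calls were then 976 higher and 33 lower in class 2 for promoters, 255 and 13 for distal regions and 1350 and 756 for gene spans.

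**Figure D3:**
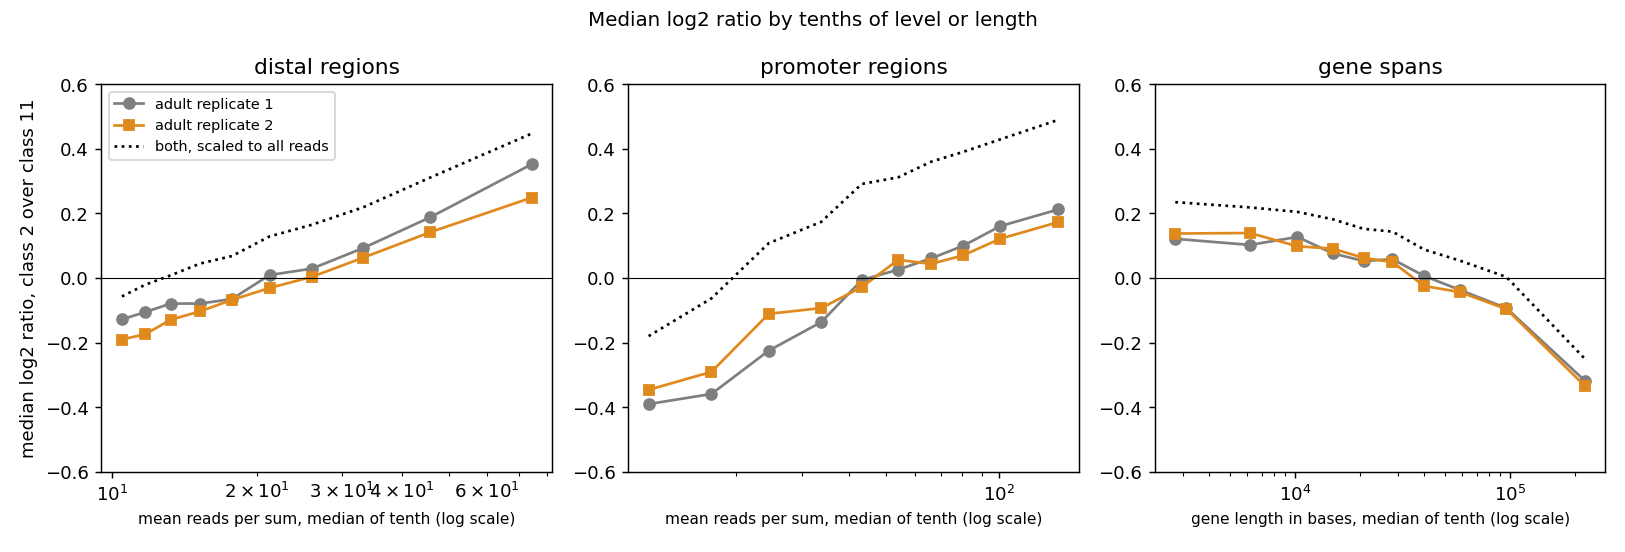
Median log2 ratio of class 2 over class 11 (y axis) in steps of 10% of distal and promoter regions by mean reads and of gene spans by length (x axes, log scale), for each adult library and, dotted, under scaling to all reads. Medians rise with read number, from -0.39 to 0.21 for promoter regions in replicate 1, and fall with gene length, from 0.12 to -0.32 in the same library.

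Reads over whole gene spans, that is the gene with 2000 bases on either side, separated the classes at more loci and followed gene length. Of 16855 gene spans, 674 (4.0%) were called higher in class 2 and 1039 (6.16%) higher in class 11. The median log2 ratio was 0.13 for the shortest 10% of genes and -0.35 for the longest 10%, which held 636 of the 1039 calls for class 11. With the offset on gene length, 654 spans were higher in class 2 and 457 in class 11, and 828 of the 1713 calls were called again, 821 of them in the same direction.

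The clearest differences at genes of this lineage were at Tnfsf11 and Calcr, both higher in class 11. Tnfsf11, the RANKL gene, had 54 and 77 reads in class 2 and 62 and 94 in class 11, although class 11 held fewer reads in all. That is 15.5 and 20.5 CPM against 62.8 and 42.0, with no overlap, and a log2 ratio of -1.49 ± 0.29 (adjusted p = 2.257e-05, edgeR). Reads over Tnfsf11 were found in 3.35% and 4.48% of class 2 nuclei and in 12.7% (exact 95% interval 8.38 to 18.2) and 10.6% (7.58 to 14.2) of class 11 nuclei. The ratio was -1.47 in depth-matched nuclei and -1.52 with the length offset. In the other lineages' 8 sums Tnfsf11 stayed between 6.93 and 18.1 CPM. Its promoter region chr14:78307262-78308261 had 2 and 14 reads against 8 and 18, a ratio of -2.16 that did not pass the test (adjusted p = 0.1553, edgeR).

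Calcr, the calcitonin receptor gene, had 10 and 29 reads in class 2 and 18 and 61 in class 11, or 2.86 and 7.71 CPM against 18.2 and 27.3, a log2 ratio of -2.13 ± 0.48 (adjusted p = 0.0004054, edgeR). It was not particular to class 11: the basal class 8 had 21.3 and 43.6 CPM. These 2 were the only calls among 15 mature luminal hormone-sensing genes, whose median ratio was 0.13. Of 18 genes of hormone response and paracrine signalling, Erbb3 (0.33) and Stat5a (0.49) were higher in class 2 and Tnfsf11, Egfr (-0.54) and Erbb4 (-0.66) in class 11, against 4.0% and 6.16% of all spans. Stat5a had 0.29 in replicate 1 and 0.65 in replicate 2. Erbb4, a receptor gene of 1076693 bases, had a ratio of 0.04 with the length offset, and of the 5 only Tnfsf11 was then called.

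Genes switched on quickly by growth signals and stress, the immediate early genes, leaned to class 2. Of 14 in the list, 7 were called higher in class 2 and none higher in class 11, against 4.0% of all spans, with a median ratio of 0.38 against 0.00 over all spans. Fos, which encodes an AP-1 subunit, had 238.6 and 261.2 CPM in class 2 and 152.9 and 175.8 in class 11, a log2 ratio of 0.60 ± 0.12 (adjusted p = 6.914e-05, edgeR). Fosb (0.56), Egr1 (0.58), Zfp36 (0.57), Dusp1 (0.52), Jun (0.49) and Fosl2 (0.43) were the others. These genes are short, with a median of 3568 bases against 24421 over all spans. With the length offset 5 of the 14 were higher in class 2, and Atf3 was higher in class 11, at -0.42 (adjusted p = 0.01505, edgeR). Among depth-matched nuclei Dusp1 (0.44) and Fosl2 (0.49) no longer passed. Epithelial adhesion genes Cdh1 (0.43) and Epcam (0.45) were the 2 calls among 10 luminal keratin and adhesion genes, and Cdh1 also passed with the length offset and in depth-matched nuclei, where Epcam (0.36) did not.

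**Figure D4:**
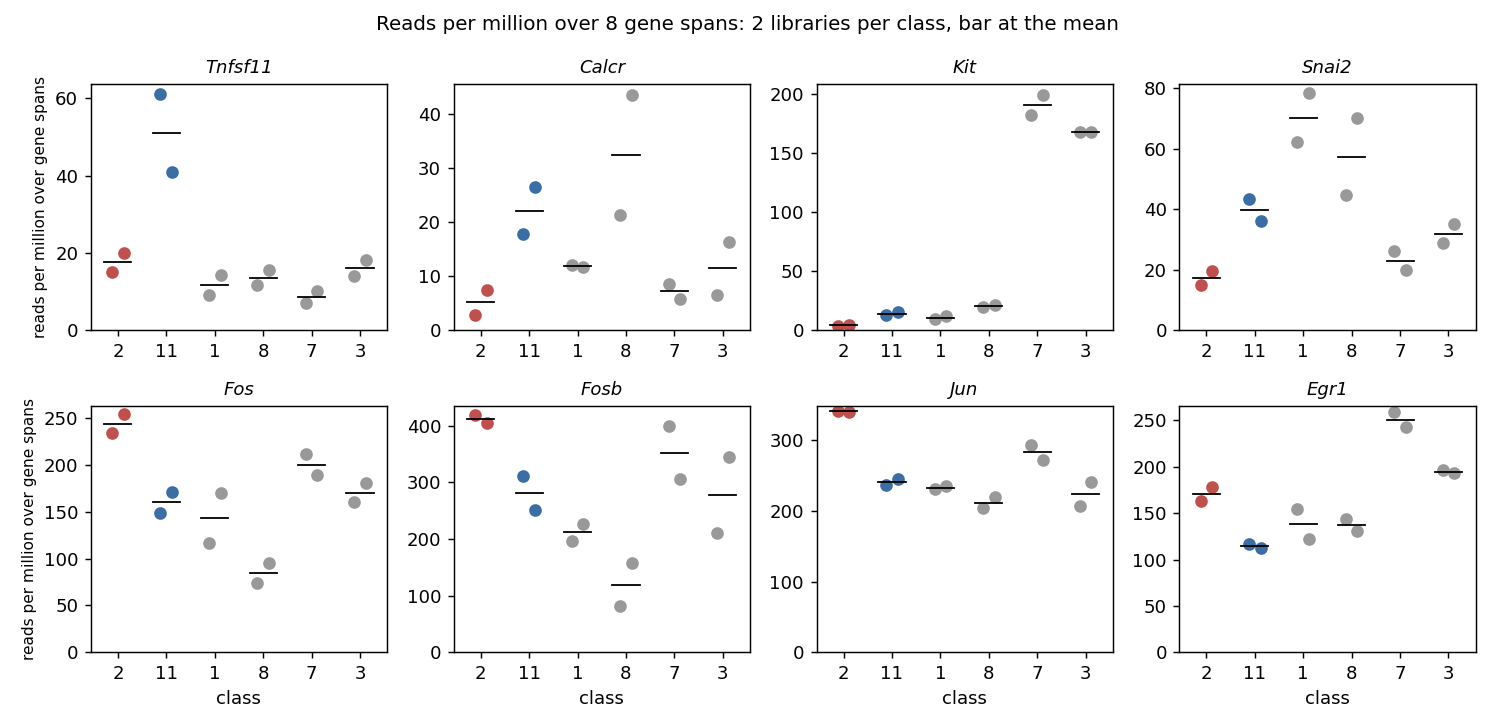
CPM (y axis, scaled over 12 sums, so slightly unlike the values in the text) over the spans of 8 genes in classes 2 and 11 (mature luminal), 1 and 8 (basal) and 7 and 3 (progenitor); points are the adult libraries and bars their means. Tnfsf11 is highest in class 11, Kit and Snai2 sit higher in class 11 than in class 2 but below the progenitor or basal classes, and Fos and Jun are highest in class 2.

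A few markers of other cell types were higher in class 11. Kit, a receptor of luminal progenitors, had 14 and 16 reads in class 2 and 13 and 35 in class 11, a log2 ratio of -1.80 ± 0.57 (adjusted p = 0.02334, edgeR, and 0.07715 among depth-matched nuclei), and was the only call among 11 tested progenitor and alveolar genes of 15 listed (median -0.32). Its level in class 11, at most 15.7 CPM, compares with 167.8 to 198.9 in the progenitor classes. Snai2 was the only call among 11 tested of 12 basal genes (-1.18, median -0.61) and Tek the only one among 5 tested of 6 endothelial genes (-1.08, median -0.89). Over all spans 6.16% were higher in class 11, so 1 call among 11 is near the background. No stromal gene of 6 tested of 7 was called (median -0.69), and no immune gene of 4 tested of 7 (median 0.15). Summed over all 8 basal markers, class 11 had 274 and 271 CPM, class 2 207 and 206, and the basal classes 1179 to 1417. For all 7 stromal markers the sums were 152 and 130 against 111 and 118, for all 6 endothelial markers 188 and 144 against 128 and 121, and for all 9 progenitor markers 204 and 236 against 214 and 227. Stromal and endothelial sums were also higher in class 8 than in class 1, and in class 3 than in class 7, in both libraries. Endothelial sums there were 229 and 222 against 151 and 146, and 168 and 180 against 132 and 152. Basal sums were 416 and 451 in class 3 against 294 and 288 in class 7. No marker in these lists was without reads in both class 2 and class 11. The part that other cells, or barcodes holding more than 1 nucleus, play in these differences was not tested. Of 8 proliferation genes only Pcna was called (0.68, higher in class 2), with a list median of 0.19. With the length offset Pcna was not called (adjusted p = 0.1032, edgeR). Of 12 widely expressed genes 1 was called, higher in class 2, with a list median of 0.23, and none with the length offset. Over all spans 4.0% were higher in class 2.

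Among called gene spans averaging 50 reads or more, the highest ratios included those of Rpl23, a protein of the large ribosomal subunit (1.52), Spag4 (1.32), Tmprss12 (1.30), Lars2, the mitochondrial leucyl-tRNA synthetase (1.29), and Polr2e, an RNA polymerase subunit (1.28). Rpl23 had 2.17 in replicate 1 and 1.13 in replicate 2, and Tmprss12 0.49 and 1.90. Spag4, Tmprss12 and Polr2e were not called among depth-matched nuclei (adjusted p = 0.07398, 0.06976 and 0.06438, edgeR) or with the spread from 12 sums. Of the 2748 reads over Lars2 in class 2 of replicate 1, 2497 lay in its called distal region. Most strongly higher in class 11 were Kcnc2, a potassium channel gene (-1.76), the zinc finger factor Tshz3 (-1.69), Plppr5 (-1.68), Abca15 (-1.63), Skint5 (-1.62) and Gabra2, a receptor subunit for GABA (-1.62). Skint5 had -0.63 in replicate 1 and -2.25 in replicate 2. Kcnc2 had 12.6 and 21.5 CPM in class 2 and 42.5 and 73.3 in class 11. Each of these genes was also higher in class 3 than in class 7 in both libraries, and all but Tshz3 in class 8 than in class 1. Scaled over 12 sums, Kcnc2 had 27.15 and 115.2 CPM in class 8 against 15.14 and 9.13 in class 1. The lengths of these 6 ran from 75436 to 521613 bases, against 3707 to 95749 bases for the 5 named higher in class 2.

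Motif scores summarise how open the regions holding a transcription factor's motif are in a nucleus, relative to all nuclei (chromVAR). Of the deposited motif scores, 388 of which had distinct values, 45 (10.5%) were higher in class 2 and 31 (7.26%) higher in class 11 by limma at an adjusted p under 0.05. Without the library as a block none passed, although 73 had an unadjusted p under 0.05.

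FOXA1 gave the largest difference. The mean Foxa1 score was 3.70 and 4.2 in class 2 and 4.30 and 4.67 in class 11, against -2.35 to -0.85 in the basal and progenitor classes. Class 11 was higher by 0.60 and 0.46, a difference of -0.53 ± 0.05 (SE) for class 2 minus class 11 (adjusted p = 0.009804, limma). Both libraries gave this order and the classes did not overlap, but replicate 2 had the higher score in both. The score rose with depth: below 4000 reads per nucleus it was 2.82 to 3.14, and at 8000 reads or more 5.20 to 5.97. Class 11 was higher in 5 of 6 combinations of depth range and library, the exception being replicate 2 from 4000 to below 8000 reads (3.78 against 4.08). In depth-matched nuclei the difference was -0.23 (adjusted p = 0.002503, limma), and in nuclei matched in depth and promoter share it was 0.03 (adjusted p = 0.8257, limma). Of 23 forkhead motifs (16 with distinct scores), 15 were higher in class 11, against 7.26% of all motifs, and none in class 2. Among depth-matched nuclei 1 was higher in class 11 and 1 in class 2, below the 7.73% and 19.2% of all motifs. Motif families were grouped by name after the scores were seen.

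RUNX motifs kept their difference in every matching. The score shared by Runx1 and Runx3 was 0.33 and 0.57 in class 2 and -0.07 and 0.06 in class 11, a difference of 0.45 ± 0.05 (adjusted p = 0.009804, limma). It was 0.42 in depth-matched nuclei and 0.58 in nuclei also matched in promoter share. Class 2 was higher in 6 of 6 combinations of depth range and library. The other pairs had the same order: class 1 had Runx1 scores of 0.67 and 0.73 against 0.30 and 0.40 in class 8. Class 7 had 0.19 and 0.01 against -0.05 and -0.03 in class 3. For motifs the difference between pairs was not tested. RUNX factors are known regulators of mammary cell fate. All 3 RUNX motifs, which hold 2 distinct scores, were higher in class 2 in each of the 3 sets of nuclei, where 10.5%, 19.2% and 13.3% of all motifs were.

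ETS motifs were higher in class 2, and fewer passed among nuclei matched in promoter share as well as depth. Of 20, 17 were called, with Erf at 0.42, Erg at 0.41, Ets1 at 0.38, Gabpa and Ets2 (identical scores) at 0.38, Etv4 at 0.37 and Elk4 at 0.36. These named scores were also higher in class 7 than in class 3 in both libraries. Gabpa had 0.22 and 0.12 against -0.23 and -0.07. Between classes 1 and 8 the order varied with motif and library. ETS factors bind many promoters of widely used genes. Among depth-matched nuclei 17 were also called, with a median of 0.48, where 19.2% of all motifs were higher in class 2. Among nuclei matched in promoter share as well 3 were, with a median of 0.06, a share near the 13.3% of all motifs. These were Erf (0.32), Ets1 (0.24) and Erg (0.22). That set also held fewer nuclei, 160 and 265 of each class against 197 and 360. The effect of promoter share alone was not tested. Of 15 motifs in the list of promoter-bound factors, 6 were higher in class 2 and none in class 11 (median 0.13), against 10.5% and 7.26% of all motifs, and 8 in depth-matched nuclei, against 19.2%. With promoter share matched too, 1 was higher in class 2 and 6 in class 11, against 13.3% and 18.7%. Of the 6 called over all nuclei, Gabpa, Elk1, Elk4 and Elf1 are themselves ETS motifs, and the others were Yy1 and Klf4.

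Nfix, of the nuclear factor I family, was lower in class 2 throughout, at -1.41 and -1.60 against -0.99 and -1.23, a difference of -0.39 ± 0.04 that was -0.56 in depth-matched nuclei and -0.48 with promoter share matched. The homeobox motifs Lmx1b (-0.35), Vax2 (-0.31) and Hoxa3 (-0.28) were likewise lower in class 2 and called in all 3 sets. The remaining forkhead motifs named, Foxn3 (-0.33), Foxj3 with Foxn2 (-0.29) and Foxa3 (-0.28), were called in neither matched set.

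**Figure D5:**
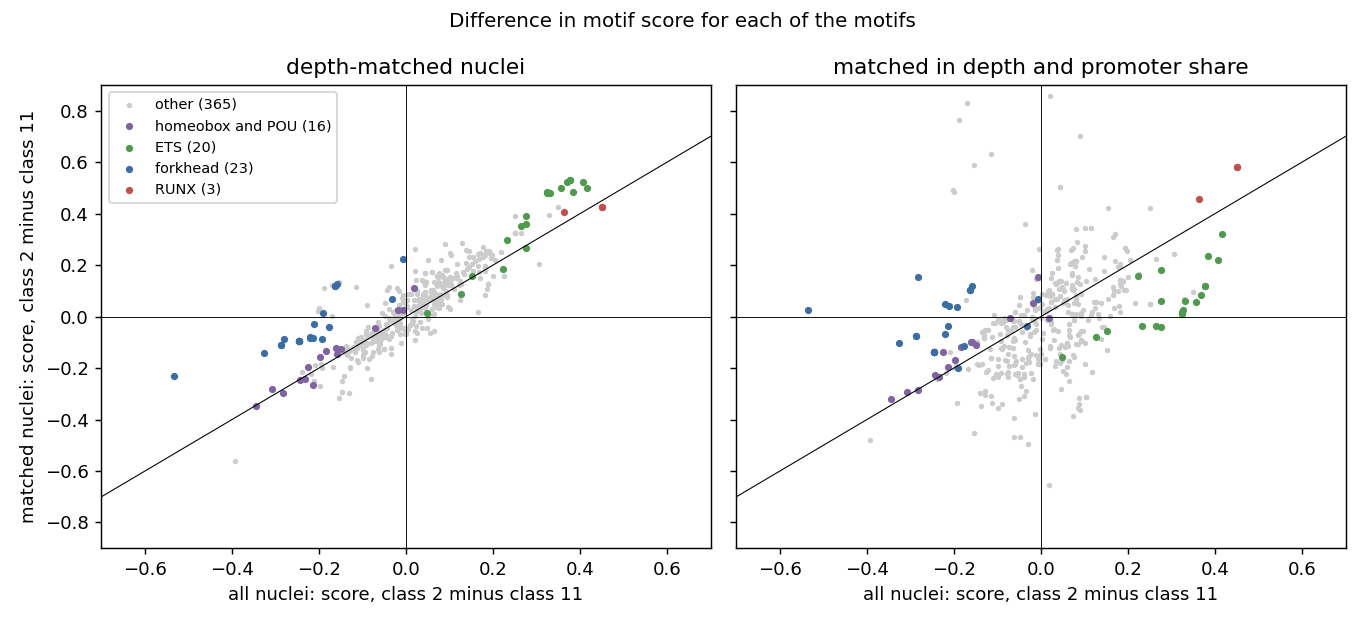
Each point is a motif; the x axis is the difference in mean score between class 2 and class 11 over all nuclei, and the y axis the same difference among depth-matched nuclei (left) or nuclei matched in depth and promoter share (right), with the diagonal of equal values. RUNX motifs lie at 0.41 to 0.58 on both y axes, forkhead motifs move toward 0 on the left, and ETS motifs move toward 0 on the right.

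The direction of AP-1 motif scores depended on the nuclei compared. Over all nuclei, of 12 AP-1 and related motifs none was higher in class 2 and 3 were higher in class 11, Jun (-0.17), Junb (-0.20) and Jund (-0.20). Of all motifs, 10.5% were higher in class 2 and 7.26% in class 11. Among depth-matched nuclei 5 of the 12 were higher in class 2 and none in class 11, against 19.2% of all motifs higher in class 2 and 7.73% higher in class 11. With promoter share matched too, 10 of the 12 were higher in class 2, Fos (0.76) and Jund (0.48) among them, against 13.3% of all motifs, and 18.7% of all were higher in class 11. Of 5 steroid receptor motifs, Pgr was higher in class 2 (0.18, and 0.24 in depth-matched nuclei), while Esr1 differed by 0.04 (adjusted p = 0.5098, limma). With promoter share matched too, Esr1 was called (0.26, adjusted p = 0.00376, limma), as were 3 of the 5 in all, against 13.3% of all motifs. Of 6 basal motifs, Runx1 and Trp63 (0.18, but 0.083 with an adjusted p of 0.3087 by limma in depth-matched nuclei and 0.20 with 0.02679 when promoter share was matched too) were higher in class 2, Nfix was the only call of 9 in the list of other mammary factors, and none of 6 progenitor motifs was called. Against 10.5% and 7.26% of all motifs, the counts for the other mammary and progenitor lists are near the background. Among depth-matched nuclei 5 of the 9 were called, all higher in class 11 (against 7.73% of all motifs): Nfia and Nfib (identical scores, -0.29), Nfic (-0.30), Nfix and Sox9 (-0.24). Ctcf, a reference with no known lineage role, differed by 0.02 over all nuclei, by 0.18 among depth-matched nuclei (adjusted p = 0.02712, limma) and by -0.65 once promoter share was matched (adjusted p = 6.669e-15, limma).

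How far the mature luminal pair resembled the pairs of the other lineages was tested as the difference between pairs, the class of larger promoter share over that of smaller. No distal region of 26445 differed from the basal pair (0.0%; 2281 at an unadjusted p under 0.05) or from the progenitor pair (0.0%; 1460), by edgeR. Of 12037 promoter regions, 2 (0.0166%) differed from the basal pair and none (0.0%; 484 at an unadjusted p under 0.05) from the progenitor pair. Across regions tested in both, which share libraries and depth differences, the log2 ratios of the mature luminal and progenitor pairs had a Pearson's r of 0.36 over 11395 promoter regions and 0.18 over 17060 distal regions, and with the basal pair 0.16 and 0.10. Of the 59 promoter regions called between classes 2 and 11, 56 were tested in the progenitor pair, where 50 had the same direction and 5 were called, and of the 13 called distal regions tested there 13 had the same direction and 12 were called. In the basal pair 54 of the 59 were tested, 42 had the same direction and 1 was called, and of 13 distal regions 12 had the same direction and 1 was called. Over all regions, the share with the same direction in the progenitor pair was 63.0% for promoter and 57.9% for distal regions, and in the basal pair 54.4% for both.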

How the data were processed

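Per the labels, 2 adult libraries of sorted CD1 epithelium were used. The submitters' processing notes name mm10, Bowtie2, MACS2 and bedtools, with no versions; duplicate removal, shifts of cut sites and doublet handling were not given in the sources used here, and no doublet caller was run. The authors deposited read positions with barcodes, lists of 145453 distal and 19204 distinct promoter regions of 1000 bases, and a table with a chromVAR score per motif, a class and the read count of each nucleus. The deposited read counts equalled the reads carrying each barcode. The authors' Cicero scores name no sample. Not used here were 7846 columns of gene scores that name no sample.

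Reads overlapping a region, or a RefSeq gene with 2000 bases on either side, were summed per class and library. Sums held 1313769 to 4962859 reads. In class 2 of replicate 1, 54 reads over Tnfsf11 lay in 27 nuclei and 10 over Calcr in 5, with at most 2 in a nucleus. Kit in class 2 had 14 reads in 7 nuclei of replicate 1 and 16 in 8 of replicate 2, also with at most 2. Each nucleus with reads in these sums therefore held 2, and why was not tested. The number of independent events can thus be smaller than the read count. edgeR 4.0.16 (R 4.3.3) was fitted with the library as a block, since both classes come from the same library, TMM factors (0.959 to 1.03), an average of 10 reads or more and Benjamini-Hochberg adjustment. The fit has 1 residual degree of freedom and borrows its spread across features. The SE of a log2 ratio is its size over the square root of F. Levels are CPM over tested features, after TMM. Mean motif scores were tested with limma 3.58.1, and DESeq2 1.42.0 was an alternative. Replicates are labelled biological, and nothing further on animals was given, so p-values cover the spread between these libraries. For motifs in the matched sets, adjusted p followed the size of the difference alone, as under a spread shared by all motifs. A motif's own spread between libraries did not enter there, so those p-values and call counts are on another footing than the main fit. Exact intervals of 95% cover counting error only.

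For depth matching, each class 11 nucleus was paired within its library with the class 2 nucleus of nearest read number, and the deeper was thinned (197 and 360 pairs). For matching in promoter share as well, pairs lay within 20% in depth and 1 percentage point in share. Motif scores of matched nuclei were not thinned. Named regions and gene spans are the 6 highest and 6 lowest log2 ratios among calls with the same direction in both libraries and an average of 50 reads or more; for motifs the 8 highest and 8 lowest. Values of 2 genes that this rule or the lists name are not reported here. Scripts were tested on simulated data. Members and lists were chosen with earlier results of these data known.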

Additional observations from a re-analysis of the deposited data

Results flagged for a closer look

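Of the promoter regions, 2 differed between the mature luminal and the basal pair by the test of the difference itself. At chr2:98666604-98667603, 1034932 bases from the nearest gene, Lrrc4c, the difference of log2 ratios was 1.98 (adjusted p = 2.019e-06, edgeR). This region held 664 and 1007 reads in class 2, 206 and 553 in class 11, 32 and 103 in class 1 and 112 and 271 in class 8. Class 1 was lower than class 8 by 2.22 on the log2 scale, while class 2 and class 11 had a ratio of -0.20. The progenitor pair had the direction of the basal pair, with 250.8 and 349.1 CPM in class 7 against 680.7 and 809.7 in class 3.

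At chr5:90902674-90903673, 226 bases from the chemokine gene Cxcl2, the difference was -2.64 (adjusted p = 0.02426, edgeR). It held 47 and 72 reads in class 2, 22 and 47 in class 11, 37 and 125 in class 1 and 4 and 22 in class 8. The mature luminal ratio was -0.59 and the basal ratio 2.04. Here too the progenitor pair had the basal direction, with 172.2 and 156.9 CPM in class 7 against 98.1 and 101.5 in class 3. Neither region differed between the mature luminal and progenitor pairs by the test. No group here has the 4 samples needed to look for a single library far from the others.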

How the results depend on the processing

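Results are printed where a count of calls moved by over 1.5 times. Distal calls, 17, were 268 when scaled to all reads, 46 with a mean of at least 50 reads, 132 with no filter, 64 when nuclei with a read were counted and 41 with an offset on level (added after seeing the data; the ribosomal repeat then had a ratio of -0.18); they stayed within 1.5 times in depth-matched (18) and share-matched nuclei (17), with DESeq2 (13), and with the spread taken from 12 sums (12). Promoter calls, 59, were 0 with DESeq2, 0 in depth-matched and 0 in share-matched nuclei, 4 with the spread from 12 sums, 37 at a mean of 50 reads, 122 with no filter, 1009 scaled to all reads and 19 with the level offset (added after seeing the data). Gene span calls, 1713, were 185 with DESeq2, 707 with the spread from 12 sums and 1111 with the length offset. Motif calls, 76, were 115 in depth-matched nuclei, 54 of the 76 among them, and 137 in share-matched nuclei, 27 of the 76 among them in the same direction. In both matched sets the motif p-values rested on a spread shared by all motifs, so these counts also differ in how the spread was taken.

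Without the library as a block (no pairing), distal calls were 12, promoter calls 4, gene span calls 799 and motif calls 0, and the differences between the mature luminal and basal pairs were 13 for distal regions and 2 for promoter regions, with 2 distal regions against the progenitor pair. The difference from the basal pair gave 13 distal regions at a mean of 50 reads and 3 when scaled to all reads, and that from the progenitor pair 1 at a mean of 50 reads. The promoter share difference was 4.94 points depth-matched and 4.83 as a median over nuclei, and 4.62 to 4.67 with either library left out.

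Direction turned for some named items. Esr1 was 0.0847 scaled to all reads, 0.0216 with no filter and 0.44 with the length offset (adjusted p = 0.003582, edgeR), and Erbb4 0.0439 with that offset. Jun, Junb and Jund scores were 0.0036, 0.0236 and 0.0337 in depth-matched and 0.0645, 0.49 and 0.48 in share-matched nuclei, where Foxa1 was 0.0261 and Foxa3 0.15, and Ctcf went from 0.02 to -0.65. The causes were not tested. Leaving out a library leaves 1 pair and no residual degree of freedom, so only values were compared. Items named by the rule had to share direction in both libraries, so their sign could not change. Called members of the lists, which had no such condition, did not change sign either. The planned GC correction was not run, because RefSeq windows cover 49.4% of promoter regions and no genome was used here. Tested distal regions had a median of 19.5 reads per sum and the fit 1 residual degree of freedom, and both limit precision.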
